A study of Mus musculus with 20 samples.

Results

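The genes described here encode the machinery by which cells display protein fragments to T cells: the class I and class II major histocompatibility complex (MHC) molecules, called H2 in the mouse, and the factors that load and switch them on. Members were the protein-coding genes of the deposited expression table whose symbol begins with H2-, together with B2m, Tap1, Tap2, Tapbp, Cd74 and Ciita. This rule, which uses names only, found 41 of 38924 genes: 28 on the class I side, 11 on the class II side, and 2 neighbours, H2-Ke2 and H2-Ke6, that present no antigen. All but 3 members lie on chromosome 17 of GRCm38, between 33915899 and 37483552. The exceptions are B2m on chromosome 2, Ciita on chromosome 16 and Cd74 on chromosome 18.

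The livers came from male mice that received a control diet or CDAHFD, a high-fat feed without choline in which defined amino acids replace protein and which is used to cause steatohepatitis and fibrosis, for 12 weeks. They were bought at 5 weeks of age and kept for 1 week before the diets began. Wild type (WT) mice were C57BL/6J and were bought separately from the TSP-1 null mice, which lack functional thrombospondin-1 (gene Thbs1) in every tissue, so the 2 genotypes were not littermates. The 4 groups, with 5 mice each, were WT on control diet (NDWT), TSP-1 null on control diet (NDKO), WT on CDAHFD (HFWT) and TSP-1 null on CDAHFD (HFKO). Mice labelled TSP-1 null are called null mice below. One library of poly(A) RNA was sequenced from 1 liver lobe of each mouse, the replicates of a group were separate mice, and the labels give no batch. Libraries held 15641545 to 23276327 fragments assigned to genes. Levels are FPKM, fragments scaled to the length of the gene and to the depth of the library, so they are per length and can be compared between genes. Values are given as mean ± SD over 5 mice.

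Class I molecules sit on nearly all cells and show peptides from inside the cell to CD8 T cells. A heavy chain pairs with the light chain B2m in the endoplasmic reticulum. The transporter Tap1 and Tap2 pumps peptides into this compartment, where Tapbp (tapasin) helps load them onto the pair. Class II molecules are made mainly by dendritic cells, B cells and macrophages, and show peptides from engulfed material to CD4 T cells. Cd74, the invariant chain, guards the class II groove until H2-DM exchanges its remnant for a peptide, a step that H2-O restrains, and Ciita is the transactivator without which class II genes are largely silent. Kupffer cells, the macrophages of the liver, and sinusoidal endothelium are among the liver cells known to present antigen.

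The tissue matched its label, since 7 hepatocyte markers summed to a higher level than any other marker list in every library. Thbs1 did not follow the genotype label: on control diet it measured 0.197 ± 0.103 FPKM in WT (0.058 to 0.326) and 1.30 ± 0.390 FPKM in the libraries labelled TSP-1 null (0.986 to 1.90), and on CDAHFD 4.62 ± 1.22 and 3.44 ± 0.547 FPKM. A value per gene does not show whether a transcript can make protein, so Thbs1 does not check the label, and every genotype difference below rests on the labels alone. B2m lies 4.02 Mb from Thbs1 on chromosome 2, and sequence inherited with the disrupted allele was not examined here.

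All 11 class II members passed the level filter of FPKM above 0.5 in at least 5 libraries, as did 17 of 28 on the class I side. H2-Oa, H2-Eb2 and H2-M2 passed through CDAHFD libraries alone, since their highest control-diet values were 0.301, 0.136 and 0.326 FPKM. H2-Ob and H2-Q2 also needed CDAHFD libraries to pass. A filter met this way favours genes that are higher on CDAHFD. Of the 11 class I members that did not, 8 were at 0 in all 20 libraries (H2-M1, H2-M9, H2-M10.1, H2-M10.3, H2-M10.4, H2-M10.5, H2-M10.6 and H2-M11). A gene of 1 kb would need 0.129 to 0.192 FPKM, depending on the library, to reach 3 fragments, so a lower level of these genes was not detectable at this depth. H2-T3 and H2-M10.2 each had 4 fragments over all 20 libraries, and H2-M5 had 39. Limits of this kind cover counting error only. Some class I genes are close copies, and their values are uncertain to that extent: 50.6% of the 31-base runs in H2-T22 transcripts, 42.9% in H2-Q6, 36.6% in H2-Q7, 30.9% in H2-Q4 and 29.4% in H2-Q10 also occur in another H2 gene. The figures were 22.7% for H2-K1 and 23.2% for H2-D1, and in class II only H2-DMb1 (31.4%) and H2-DMb2 (29.7%) shared more than 1.1%. Exons of other annotated genes overlap 29.4% of the exonic bases of H2-T22, 24.9% of Tapbp, 22.8% of H2-Oa, 19.1% of H2-Q4, 14.1% of Tap2 and 10.4% of H2-DMa, whose values are uncertain for that reason too.

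The resting liver held much more class I than class II transcript. Summed over members, NDWT livers carried 3069 ± 299 FPKM of class I and 237.5 ± 88.9 FPKM of class II. B2m alone gave 44.8% of the class I sum in NDWT, H2-K1 23.2%, H2-Q10 14.0% and H2-D1 10.1%. H2-Q10, which encodes a secreted class I molecule known as a liver product, stood above the classical heavy chain H2-D1 in both control-diet groups. In class II, Cd74 gave 41.8% of the NDWT sum, H2-Ab1 22.3%, H2-Eb1 19.8% and H2-Aa 10.7%. Ciita was scarce, at 0.590% of that sum.

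Every class II member was higher on CDAHFD than on control diet in both genotypes. To ask what changed with the diet, CDAHFD was compared with control diet within each genotype, and a gene was called when limma, fitted over 14524 genes on log2(FPKM + 0.1), put its log2 fold change (log2FC) beyond 0.58 in size at a false discovery rate (FDR, Benjamini-Hochberg, two-sided) below 0.05. All 11 class II members were called higher in WT and all 11 in null mice, where 44.1% and 41.9% of all tested genes were called higher (4.62% and 4% lower), and in all 11 the diets did not overlap in either genotype (50.5% and 52.7% of all tested genes). The median class II log2FC was 1.87 in WT and 2.17 in null mice, against medians of 0.53 and 0.50 over all tested genes. The median of all tested genes depends on scaling: with median of ratios scaling it was −0.01 in both genotypes, 3299 genes were called higher and 2242 lower in WT (against 6412 and 671 as deposited), and all 11 class II members were still called higher in both genotypes. With quantile normalization 8 of 11 were called higher in WT and 8 of 11 in null mice, where 2514 and 2421 of all 14524 genes were called higher. H2-Oa and H2-Eb2, both near the detection limit on control diet, were not called in either genotype under that setting, nor were Ciita in WT (0.41, FDR = 0.0662, limma) and H2-Ob in null mice (0.40). A filter of mean FPKM above 0.5 left out H2-Oa and H2-Eb2. With it 9 of 9 class II members were called higher in each genotype, where 5801 and 5515 of 13444 genes were. Without a level filter all 11 were called higher in both genotypes, where 8309 and 7575 of 25536 genes were.

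Cd74, the most abundant class II member, measured 102, 143, 112, 48.2 and 86.8 FPKM in the 5 NDWT livers and 434, 378, 445, 335 and 191 FPKM in the 5 HFWT livers. In null mice it measured 71.4, 55.2, 62.5, 71.8 and 44.0 FPKM on control diet and 212, 269, 287, 196 and 451 FPKM on CDAHFD. Each CDAHFD liver stood above each control-diet liver of its genotype, and the log2FC was 1.88 ± 0.28 (SE) in WT and 2.17 ± 0.28 in null mice (FDR = 5.28e-06 and 9.87e-07, limma). Within the CDAHFD groups 1 HFWT liver was low and 1 HFKO liver was high.

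H2-Aa and H2-Ab1 encode the alpha and beta chains of the I-A molecule, the class II molecule of C57BL/6 mice. In WT mice H2-Ab1 measured 55.9, 82.7, 55.5, 23.4 and 49.1 FPKM on control diet and 219.9, 179.9, 201, 179.6 and 106 FPKM on CDAHFD, and in null mice 30.01, 28.7, 29.4, 36.0 and 19.8 FPKM and 107, 138, 148, 106 and 221 FPKM. Its log2FC was 1.80 ± 0.28 in WT and 2.29 ± 0.28 in null mice. H2-Aa rose from 25.2 ± 8.84 to 101 ± 19.7 FPKM in WT and from 14.6 ± 2.55 to 74.6 ± 18.9 FPKM in null mice. The H2-Ab1 level exceeded that of its partner H2-Aa in each of the 4 group means.

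H2-Eb1 encodes the beta chain of the other class II molecule, I-E. C57BL/6 mice are known to lack the I-E alpha chain through a deletion in its gene, and the row for that gene, H2-Ea-ps, held 0 fragments in all 20 libraries on either diet. H2-Eb1 nevertheless stood among the 3 most abundant class II members, with 47.5, 76.2, 53.7, 19.3 and 42.8 FPKM in NDWT and 219, 189, 208, 208 and 123 FPKM in HFWT. Its log2FC was 2.54 ± 0.27 in null mice and 2.08 ± 0.27 in WT. The related H2-Eb2 was near the limit on control diet, with 12 fragments over the 5 NDWT libraries and 9 over the 5 NDKO libraries, against 121 and 110 on CDAHFD. Corrected for depth the ratio was 10.1 in WT (95% exact interval 5.6 to 20.2) and 12.7 in null mice (6.45 to 28.5), where the interval covers counting error only, and its fitted log2FC in null mice moved from 2.18 to 4.03 at a pseudocount of 0.01.

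**Figure D1:**
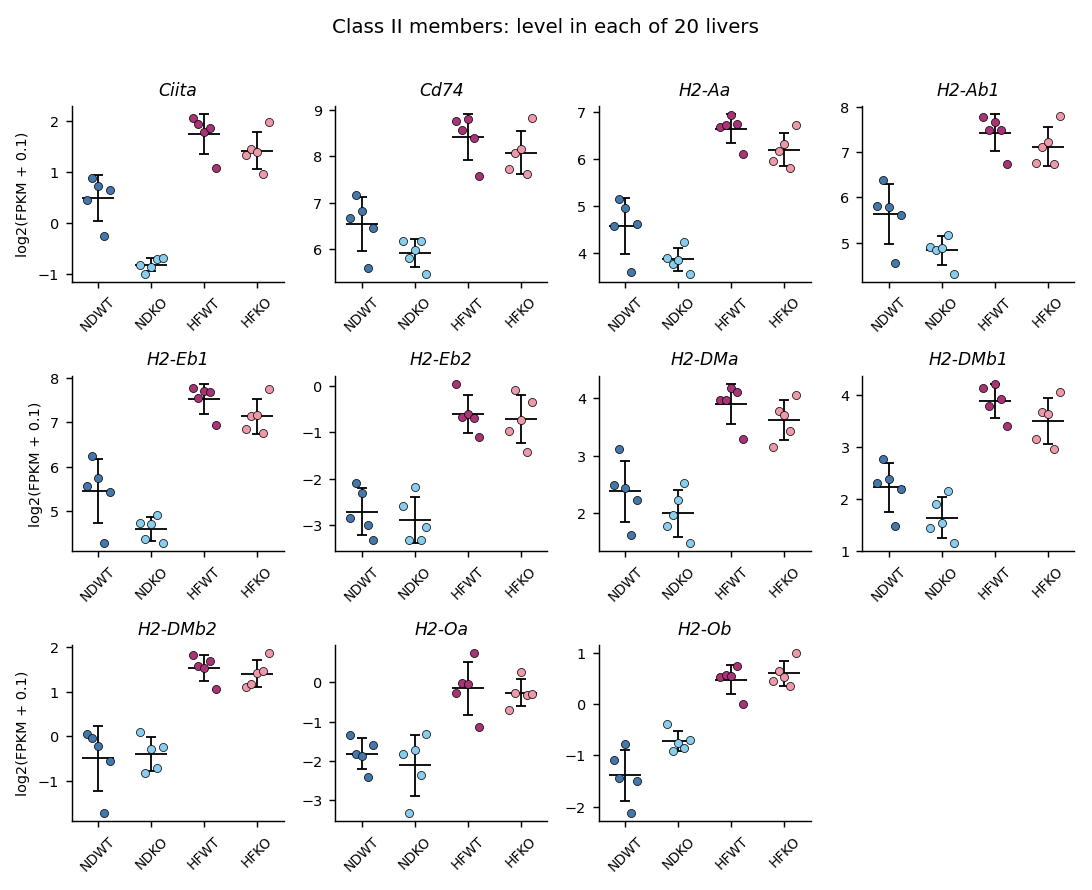
Level of the 11 class II members in each of 20 livers, as log2(FPKM + 0.1) on the vertical axis, by group. Points are mice, and horizontal bars and whiskers are mean ± SD (n = 5 per group). In each panel all CDAHFD points lie above the control-diet points of the same genotype, and in the Ciita panel all 5 NDKO points lie below all 5 NDWT points.

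The peptide exchange factors moved the same way at lower levels. H2-DMa rose from 5.39 ± 2.03 to 15.2 ± 3.21 FPKM in WT and from 4.02 ± 1.16 to 12.5 ± 2.94 FPKM in null mice. H2-DMb1 rose from 4.75 ± 1.44 to 15.0 ± 3.21 and from 3.09 ± 0.877 to 11.6 ± 3.49 FPKM, and its near copy H2-DMb2 from 0.670 ± 0.292 to 2.85 ± 0.540 and from 0.682 ± 0.201 to 2.59 ± 0.585 FPKM. Of the H2-O chains, which hold H2-DM back and are typical of B cells, H2-Ob rose from 0.300 ± 0.132 to 1.32 ± 0.254 FPKM in WT and from 0.512 ± 0.0895 to 1.44 ± 0.277 FPKM in null mice, and H2-Oa from 0.193 ± 0.0757 to 0.878 ± 0.439 and from 0.157 ± 0.114 to 0.752 ± 0.213 FPKM.

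Ciita had the smallest class II response in WT and a larger one in null mice, the genotypes having differed on control diet. It measured 1.26, 1.73, 1.56, 0.732 and 1.47 FPKM in NDWT and 4.09, 3.75, 3.35, 3.55 and 2.00 FPKM in HFWT. In null mice the values were 0.461, 0.402, 0.448, 0.512 and 0.518 FPKM on control diet and 2.41, 2.62, 2.52, 1.85 and 3.83 FPKM on CDAHFD. Every CDAHFD liver lay above every control-diet liver, and the log2FC was 1.26 ± 0.21 in WT and 2.24 ± 0.21 in null mice. The difference between these responses, 0.98 ± 0.30, was not called in the interaction of diet and genotype (FDR = 0.124, limma). It was called without NDWT replicate 4, the NDWT liver with the lowest Ciita (1.17, FDR = 0.0363).

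Promoter sequence of class II members is shown because these 11 genes rose together. RefSeq windows (GRCm38.p6, 250 bases before to 50 after the start of the gene) were at hand for 34 of 41 members, and for 6 class II members the RefSeq start lay within 400 bases of the start in the table. Class II promoters are known for an X box and a Y box, bound by the factors that recruit Ciita. The motifs, chosen after reading the windows, were AGNAAC for the core of the X box and ATTGG for that of the Y box, searched on both strands. Both, with their first bases 25 to 45 bases apart on 1 strand, occurred in 5 of 6 class II windows and in 1.14% of 32851 windows in all. The windows of H2-DMa and H2-DMb2, whose RefSeq starts lay 9664 and 1942 bases from those in the table, were left out and held no such pair. The stretches below run from 140 to 31 bases before the start, on the strand of the gene, with AGNAAC and ATTGG in capitals where they read on that strand.
H2-Aa (chr17:34287854-34287963, minus strand): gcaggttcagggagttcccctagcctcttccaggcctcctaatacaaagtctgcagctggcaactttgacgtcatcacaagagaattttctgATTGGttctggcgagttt
H2-Eb1 (chr17:34305727-34305836, plus strand): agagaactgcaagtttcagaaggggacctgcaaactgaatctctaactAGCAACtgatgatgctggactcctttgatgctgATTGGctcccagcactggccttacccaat
H2-Eb2 (chr17:34325535-34325644, plus strand): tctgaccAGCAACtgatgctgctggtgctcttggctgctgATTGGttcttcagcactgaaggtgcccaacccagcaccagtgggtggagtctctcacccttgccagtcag
H2-DMb1 (chr17:34153051-34153160, plus strand): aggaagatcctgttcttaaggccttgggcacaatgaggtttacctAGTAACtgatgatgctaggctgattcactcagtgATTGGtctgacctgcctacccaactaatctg
H2-Oa (chr17:34092239-34092348, plus strand): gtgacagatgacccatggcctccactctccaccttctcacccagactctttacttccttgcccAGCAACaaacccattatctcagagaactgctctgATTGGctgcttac
H2-Ob (chr17:34238765-34238874, plus strand): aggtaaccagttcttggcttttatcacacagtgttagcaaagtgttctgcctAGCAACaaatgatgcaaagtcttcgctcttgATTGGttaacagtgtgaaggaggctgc
AGNAAC began 33 bases before ATTGG in H2-Eb1 and H2-Eb2, 34 bases before it in H2-DMb1 and H2-Oa, and 31 bases before it in H2-Ob. Among pairs kept at 25 to 45 bases this distance thus varied little, while the distance to the start varied more. ATTGG began at 43 bases before the start in H2-Oa and at 100 in H2-Eb2. H2-Aa held ATTGG and no AGNAAC. The pair at this spacing occurred in 1 of 13 windows of tested class I members, that of H2-M2. On its own ATTGG is common, in 37.4% of all windows and 12 of 13 windows of tested class I members. A match is a run of letters, and binding was not measured.

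On the class I side the diet response was uneven. Of 17 tested members, 10 were called higher in WT and 12 in null mice, none was called lower, and 7 and 5 were not called. The diets did not overlap for 11 of 17 in WT and 13 of 17 in null mice (50.5% and 52.7% of all tested genes). With median of ratios scaling 8 were called higher in each genotype, and 1, H2-Q10, lower in WT. The median class I log2FC was 1.04 in WT and 1.01 in null mice, against 0.53 and 0.50 over all tested genes, and 44.1% and 41.9% of all tested genes were called higher. The most abundant members were among those not called. The summed class I level was 4199 ± 461 FPKM in HFWT and 3925 ± 298 FPKM in HFKO, against 3069 ± 299 in NDWT and 2902 ± 124 in NDKO.

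Of the classical heavy chains, H2-D1 was called and H2-K1 was not. H2-D1 measured 350.2, 370.4, 310.1, 261 and 269.9 FPKM in NDWT and 731, 617, 694, 654 and 506 FPKM in HFWT. In null mice it measured 305, 249, 319, 275 and 233 FPKM on control diet and 481, 573, 583, 453 and 706 FPKM on CDAHFD, so the diets did not overlap in either genotype. Its log2FC was 1.04 ± 0.13 in WT and 1.01 ± 0.13 in null mice (FDR = 8.85e-07 and 1.4e-06, limma). H2-K1 measured 841, 842, 678, 591 and 616 FPKM in NDWT and 1007, 837, 936, 885 and 649.7 FPKM in HFWT. The diets overlapped for H2-K1, and its log2FC was 0.28 ± 0.12 in WT and 0.26 ± 0.12 in null mice (FDR = 0.049 and 0.0659). The call for H2-D1 depends on scaling: with median of ratios scaling, which takes the typical gene as fixed, its log2FC was 0.48 in WT and 0.47 in null mice and it was not called.

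B2m, the light chain of all these molecules, had a small response. In WT mice it measured 1336, 1418, 1490.2, 1185 and 1416 FPKM on control diet and 1835, 1788, 2163, 1928 and 1616 FPKM on CDAHFD, and in null mice 1263, 1216, 1351, 1362 and 1393 FPKM and 1660.3, 1895, 1751, 1590.4 and 1766 FPKM. Every CDAHFD liver lay above every control-diet liver of its genotype. Its log2FC of 0.44 ± 0.08 in WT and 0.39 ± 0.08 in null mice (FDR = 7.56e-05 and 0.000271) lay under the fold threshold and under the medians of all tested genes. The direction of B2m and H2-K1 depends on scaling. With quantile normalization B2m stood at 0.95 and 0.96 and H2-K1 at 0.75 and 0.73, called in both genotypes, and with median of ratios scaling B2m stood at −0.12 and −0.14 and H2-K1 at −0.29 and −0.28, not called.

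**Figure D2:**
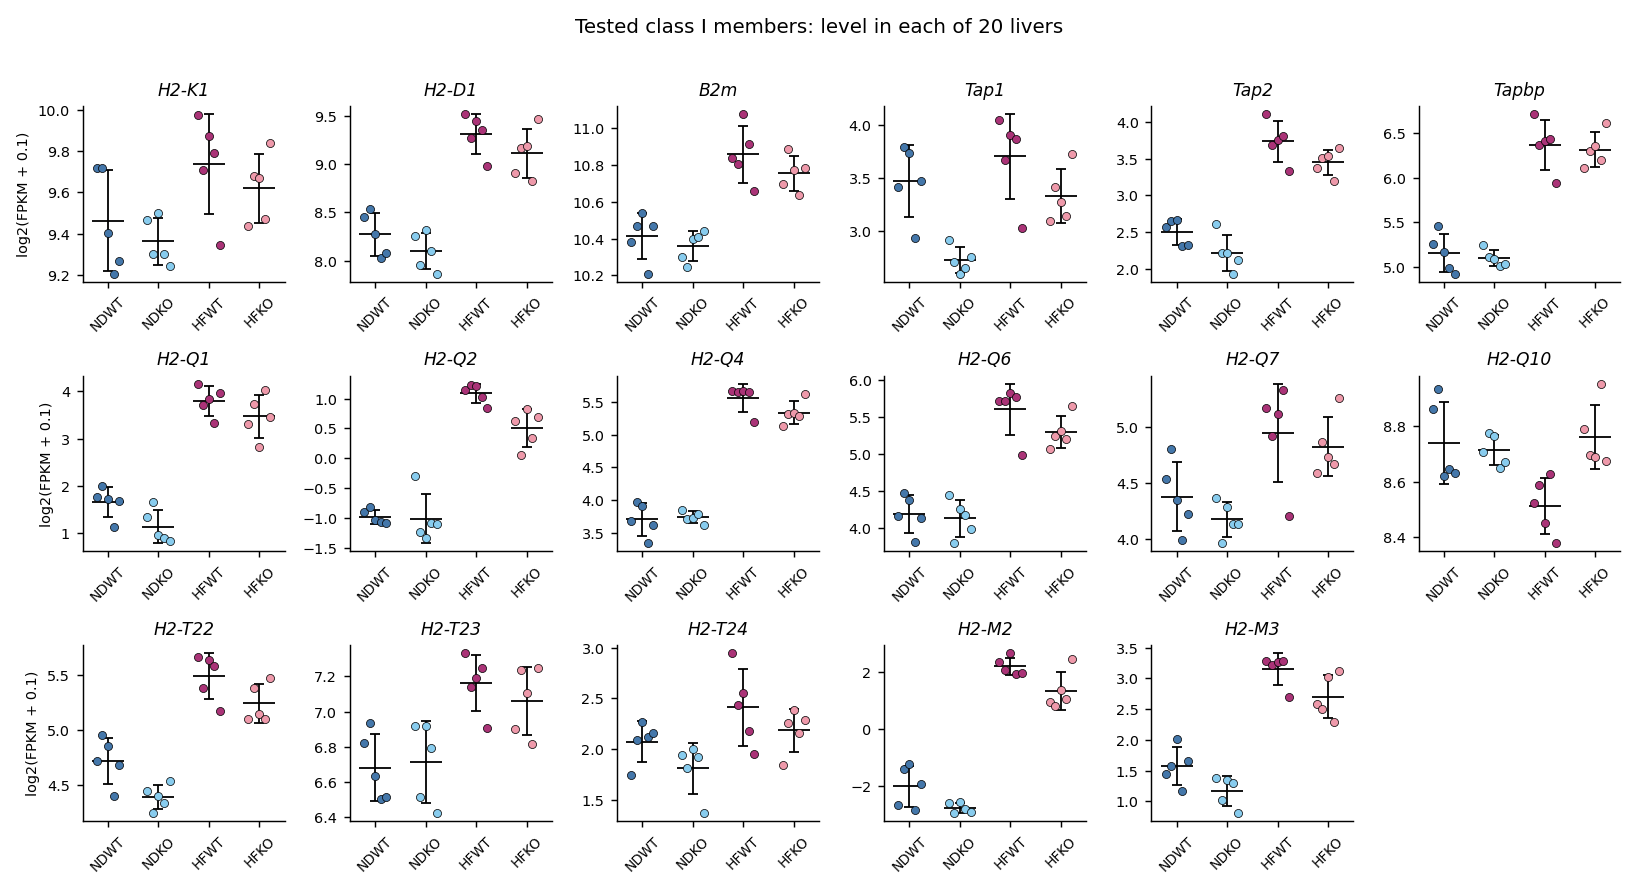
Level of the 17 tested class I members in each of 20 livers, as log2(FPKM + 0.1) on the vertical axis, by group. Points are mice, and horizontal bars and whiskers are mean ± SD (n = 5 per group). The vertical scales differ between panels: the groups of H2-M2 span several log2 units, whereas the H2-Q10 points all lie within 1 unit.

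Members of the loading complex split. Tapbp rose from 35.9 ± 5.42 to 83.9 ± 15.6 FPKM in WT and from 34.1 ± 2.26 to 80.1 ± 11.2 FPKM in null mice, with a log2FC of 1.21 and 1.22 (SE 0.12). Tap2 rose from 5.61 ± 0.670 to 13.4 ± 2.56 FPKM and from 4.62 ± 0.855 to 10.9 ± 1.27 FPKM, with a log2FC of 1.23 ± 0.13 in both. Its partner Tap1 was not called in WT (11.2 ± 2.46 and 13.3 ± 3.20 FPKM, log2FC 0.23 ± 0.175, FDR = 0.24). In null mice Tap1 was called higher, at 6.56 ± 0.569 on control diet and 10.1 ± 1.87 FPKM on CDAHFD (log2FC 0.60 ± 0.175, FDR = 0.00468). This call sat at the fold threshold, was lost with another scaling (log2FC 0.07 with median of ratios scaling, 0.10 with quantile normalization), at a pseudocount of 1, and was lost without NDKO replicate 3, HFKO replicate 2 or HFKO replicate 5. The difference between the 2 responses of Tap1 was not called in the interaction (0.37, 95% interval −0.15 to 0.89, FDR = 0.521).

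The Q region holds nonclassical heavy chains, often called Qa molecules, and responded in a graded way. H2-Q4 measured 12.7, 15.6, 14.9, 10.1 and 12.2 FPKM in NDWT and 50.8, 50.2, 50.3, 50.1 and 36.2 FPKM in HFWT, with a log2FC of 1.86 ± 0.12 in WT and 1.59 ± 0.12 in null mice. H2-Q1 and H2-Q2 had a log2FC of 2.14 ± 0.21 and 2.08 ± 0.18 in WT and of 2.33 ± 0.21 and 1.52 ± 0.18 in null mice, and H2-Q6 of 1.42 ± 0.16 and 1.17 ± 0.16. These 4 genes were called in both genotypes. H2-Q7 was called in null mice alone (0.65 ± 0.18, FDR = 0.00359), its WT value of 0.57 ± 0.18 missed the fold threshold, and the difference between the responses was not called in the interaction (0.08, 95% interval −0.46 to 0.61, FDR = 0.928). The H2-Q7 call in null mice was lost without HFKO replicate 5, with median of ratios scaling (0.11) and with quantile normalization (0.34), and in WT a call was gained without NDWT replicate 1 (0.61), NDWT replicate 2 (0.67) or HFWT replicate 5 (0.75).

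H2-Q10 was the exception within the Q region. Control-diet levels were 464, 487, 393, 400.4 and 396 FPKM in WT and 418, 437, 434, 401 and 407 FPKM in null mice. CDAHFD levels were 368, 385, 349.8, 395 and 333 FPKM in WT and 441, 414, 412, 494 and 409 FPKM in null mice. Its log2FC was −0.22 ± 0.07 in WT and 0.05 ± 0.07 in null mice, neither called, and on the deposited scaling it was the only tested member with a negative diet log2FC. With median of ratios scaling it was called lower in WT (log2FC −0.79) and stood at −0.489 in null mice, where it was not called. With that scaling H2-K1, B2m, H2-T23 and H2-T24 were also negative in both genotypes and Tap1 in WT, none of them called. The share of H2-Q10 in the summed class I level was 14.0% in NDWT and 8.78% in HFWT, and 14.5% in NDKO and 11.2% in HFKO. In CDAHFD livers every HFKO value lay above every HFWT value (0.847% of all tested genes), though the difference of 0.25 ± 0.07 was not called (FDR = 0.104).

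Promoter stretches of 6 of these heavy chain genes are shown because their responses ranged from none to several-fold while parts of their sequences are alike. Each spans 100 bases set around a run that all 6 share. The motif searched on both strands, a form of the kappaB site of the class I enhancer A, was GGGGATT, any base, then CC, and its matches are in capitals.
H2-K1 (chr17:34000388-34000487, minus strand): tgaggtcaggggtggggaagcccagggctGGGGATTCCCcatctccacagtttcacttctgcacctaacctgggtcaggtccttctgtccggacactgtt
H2-D1 (chr17:35262894-35262993, plus strand): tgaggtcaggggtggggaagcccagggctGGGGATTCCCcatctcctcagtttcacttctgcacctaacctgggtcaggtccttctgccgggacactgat
H2-Q4 (chr17:35379414-35379513, plus strand): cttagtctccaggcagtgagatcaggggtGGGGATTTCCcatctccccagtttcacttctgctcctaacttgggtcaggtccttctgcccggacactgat
H2-Q6 (chr17:35424648-35424747, plus strand): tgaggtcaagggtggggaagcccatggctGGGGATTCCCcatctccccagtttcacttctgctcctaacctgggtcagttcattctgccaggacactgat
H2-Q7 (chr17:35438992-35439091, plus strand): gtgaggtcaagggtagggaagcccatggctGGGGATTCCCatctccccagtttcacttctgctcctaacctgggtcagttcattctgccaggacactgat
H2-Q10 (chr17:35469884-35469983, plus strand): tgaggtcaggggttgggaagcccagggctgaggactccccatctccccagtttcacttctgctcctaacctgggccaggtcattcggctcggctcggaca
The enhancer A motif occurred in 5 of 13 windows of tested class I members and in 0.268% of all windows. The 5 were H2-K1, H2-D1, H2-Q4, H2-Q6 and H2-Q7, and H2-Q10 did not hold these letters. Holding them did not go with 1 size of response, since H2-K1 was not called and H2-Q4 had a log2FC of 1.86. Compared without gaps, pairs of these stretches had the same base at 63 (H2-Q7 and H2-Q10) to 96 (H2-K1 and H2-D1) of 100 positions. The H2-Q7 stretch holds 1 C fewer after the motif than that of H2-Q6. A count without gaps, 77 for this pair, thus understates how alike they are. In the pair with the highest count the log2FC in WT was 0.28 for H2-K1 and 1.04 for H2-D1. A strict form of the core of an interferon response element, GAAA, any 2 bases, then GAAA, occurred in the windows of B2m, H2-T22 and H2-T23. It occurred in 3.44% of all windows. Other forms of the element were not searched, so windows without these letters, those of the 6 genes above included, are not shown to lack it. Whether the run that all 6 stretches share is such a form was not examined.

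**Figure D3:**
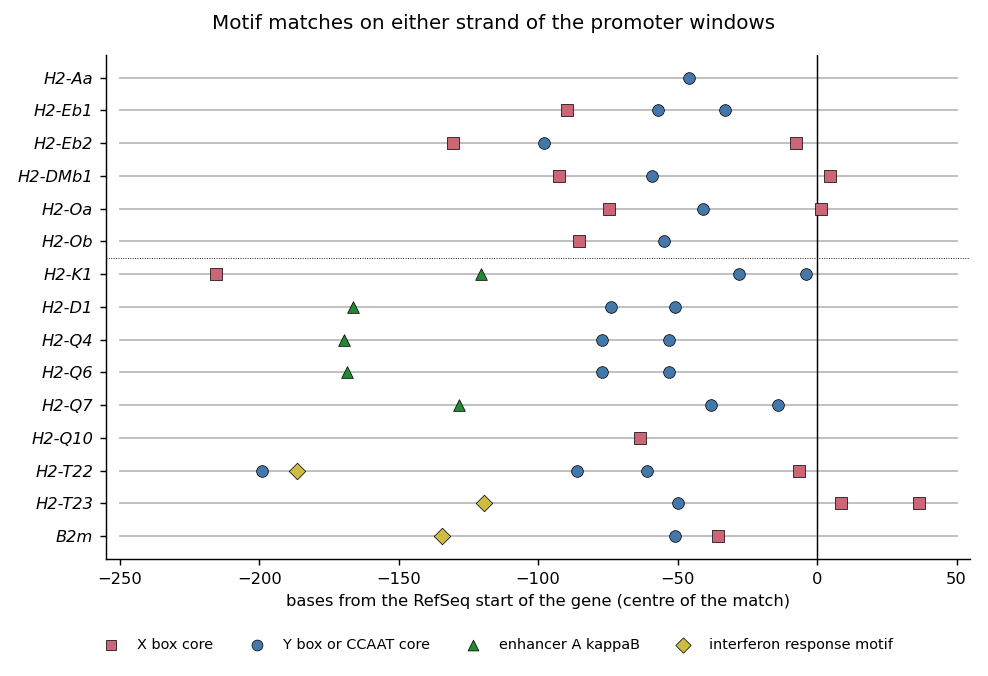
Motif matches in the promoter windows of 6 class II members (above the dotted line) and 9 class I members, as distance in bases from the RefSeq start of the gene. Symbols mark the centre of each match on either strand. The X and Y box cores lie at a nearly constant distance from each other in 5 class II windows, and the enhancer A symbol is present in 5 class I windows and missing from that of H2-Q10.

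The T region and M region members differed widely. H2-T23, which encodes the Qa-1 molecule recognised by NK cell receptors, measured 103 ± 13.8 FPKM in NDWT and 144 ± 15.3 in HFWT and was not called (log2FC 0.48 ± 0.12 in WT and 0.35 ± 0.12 in null mice). H2-T22, a ligand of gamma delta T cells, was called in both genotypes (0.77 ± 0.11 and 0.85 ± 0.11), but in neither with median of ratios scaling (0.21 and 0.31) or quantile normalization (0.57 in both). H2-T24 stayed between 2.49 and 7.59 FPKM and was not called. H2-M3, which presents N-formylated bacterial peptides, rose from 2.93 ± 0.663 to 8.90 ± 1.41 FPKM in WT and from 2.18 ± 0.369 to 6.58 ± 1.66 FPKM in null mice.

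H2-M2 had the largest diet log2FC of any tested member, and it passed the level filter through CDAHFD libraries alone. It measured 0.055, 0.27, 0.326, 0.038 and 0.162 FPKM in NDWT and 4.92, 4.07, 6.14, 3.69 and 3.77 FPKM in HFWT, which was 24 fragments over the 5 NDWT libraries and 664 over the 5 HFWT libraries. In null mice it measured 0.062, 0.028, 0.069, 0.04 and 0.032 FPKM on control diet, at most 2 fragments in any library, and 1.81, 1.65, 2.44, 1.96 and 5.35 FPKM on CDAHFD. Corrected for depth the ratio of fragments was 27.8 in WT (95% exact interval 18.5 to 43.8) and 57.6 in null mice (27.7 to 144), for 7 and 388 fragments. The fitted log2FC, 4.21 ± 0.31 in WT and 4.10 ± 0.31 in null mice, depends on the 0.1 added to each value. HFKO replicate 5 held more H2-M2 than the other 4 HFKO livers and overlapped HFWT.

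**Figure D4:**
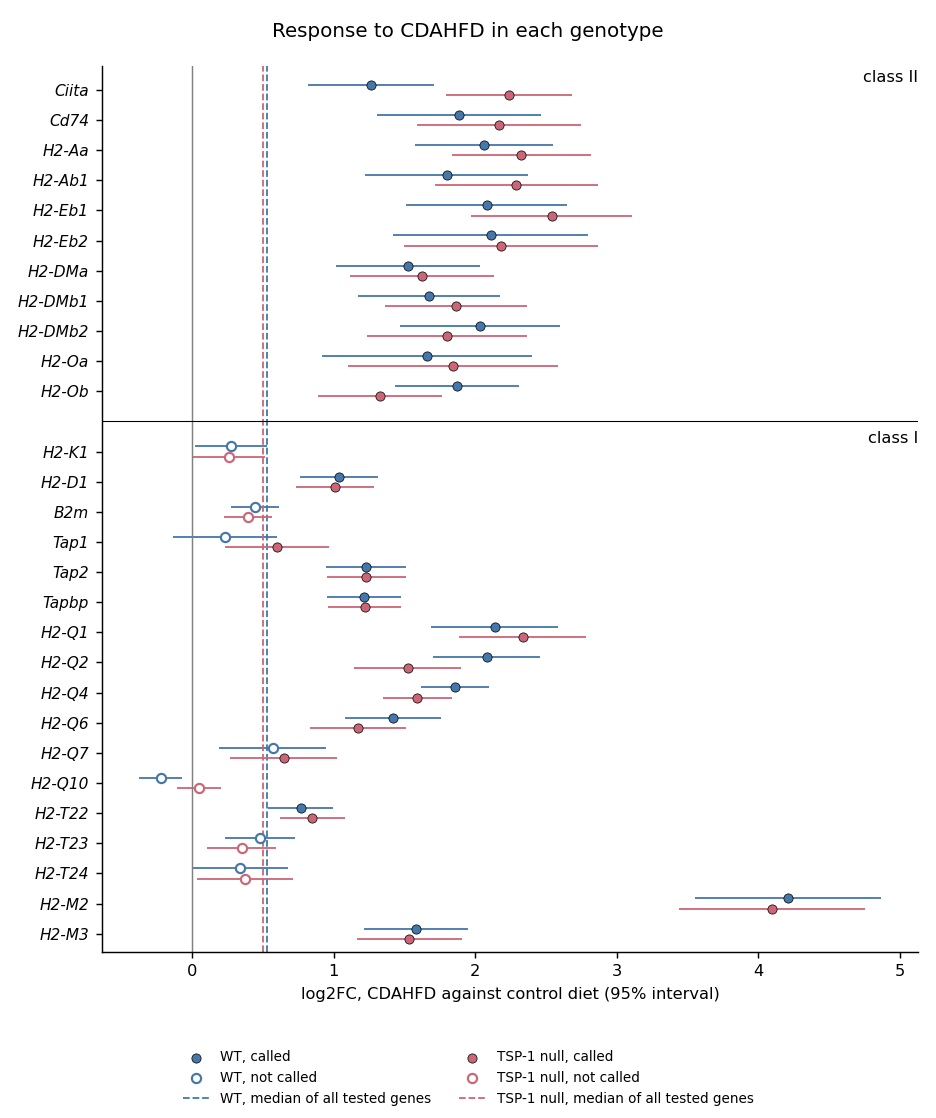
log2FC of CDAHFD against control diet for the 28 tested class I and class II members, in WT (blue) and TSP-1 null mice (red), with 95% intervals from limma. Filled points were called, dashed lines mark the medians of all 14524 tested genes (0.53 and 0.50), all class II points lie to the right of both lines, and those of H2-K1, B2m, H2-T23, H2-T24 and H2-Q10 lie to the left.

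Genes that work with the class II members, taken from a list of 9, were called higher for 7 of 9 in WT and 6 of 9 in null mice, with no gene called lower (44.1% and 41.9% of all tested genes were called higher). Ctss, the protease that trims the invariant chain, had a log2FC of 3.53 in WT and 3.25 in null mice, Lgmn, another endosomal protease, 1.74 and 1.66, and Ifi30, a thiol reductase of the same compartment, 1.64 and 1.75. Rfx5, a subunit of the complex that binds the X box, was called in WT (0.95) and not in null mice (0.50), and the difference was not called in the interaction (−0.45, FDR = 0.184, limma). On the class I side 5 of 11 genes of loading and control were called higher in each genotype, a share close to that of all tested genes, among them Psmb10, a subunit of the immunoproteasome (1.4 and 1.39), Psme2, a subunit of its activator (0.66 and 0.73), and the tapasin relative Tapbpl (1.23 in both). The medians of these lists were 1.47 and 1.66 for class II and 0.55 and 0.52 for class I, against 0.53 and 0.50 over all tested genes. Of 13 tested genes of the interferon gamma signal 8 were called higher in WT and 9 in null mice, with Ifngr1, a chain of its receptor, at 1.83 and 1.70. Of 6 class I-like genes outside the H2 names, Mr1 was called higher in both genotypes (1.89 and 1.53) and Fcgrt lower in WT (−0.59).

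In bulk tissue, more cells of a type and more RNA per cell cannot be told apart. Summed markers of antigen-presenting cells were higher on CDAHFD too. The counts of markers called stand against 44.1% of all tested genes called higher in WT and 41.9% in null mice (4.62% and 4% lower). The 11 macrophage and Kupffer cell markers summed to 154.6 to 211.5 FPKM in NDWT and 919.3 to 1236 in HFWT, and to 143.4 to 249.4 in NDKO and 576.0 to 1228 in HFKO. Of these 11, 7 were called higher and 2 lower in each genotype, the lower ones being Clec4f (log2FC −1.22 in WT and −0.77 in null mice) and Timd4 (−3.52 and −3.13), which mark resident Kupffer cells. The 9 dendritic cell markers, 8 of which were called higher in each genotype, summed to 3.76 to 6.12 FPKM in NDWT and 33.2 to 44.6 in HFWT, and to 3.84 to 6.22 in NDKO and 21.5 to 44.4 in HFKO. The 8 B cell markers, of which 7 were tested and called higher in each genotype, summed to 1.48 to 4.52 FPKM in NDWT and 8.86 to 13.04 in HFWT, and to 3.29 to 6.40 in NDKO and 9.72 to 16.6 in HFKO. Markers of other cells were also higher on CDAHFD: from NDWT to HFWT the mean sum went from 4.03 to 18.7 FPKM for T and NK cells, from 20.6 to 107 FPKM for stellate cells and from 16.3 to 414 FPKM for cholangiocytes. For sinusoidal endothelium it went from 55.9 to 71.0 FPKM, with 2 of 6 markers called higher. None of these markers was at 0 in all 5 libraries of any group, and their part in the class II result was not tested.

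In 3 of the 4 groups at least 1 mouse was lowest or highest for most members of both classes. HFWT replicate 5 was the lowest of its group for all 11 class II members and for 15 of 17 tested class I members, and it also had the lowest macrophage, dendritic cell and B cell sums of that group. NDWT replicate 4 was the lowest NDWT liver for 10 of 11 and 13 of 17 members and likewise had the lowest of these 3 sums. NDWT replicate 2 was the highest NDWT liver for 8 of 11 and 12 of 17 members. HFKO replicate 5 was the highest HFKO liver for 9 of 11 and 12 of 17, with the highest macrophage, dendritic cell and B cell sums. In NDKO the classes did not share a mouse: replicate 4 was highest for 6 of 11 class II and 0 of 17 class I members, and replicate 1 for 2 of 11 and 8 of 17. In WT the class II diet calls do not rest on the low livers. Without NDWT replicate 4 and HFWT replicate 5, a choice made after their levels were seen, all 11 class II members stayed called higher in WT. In that fit 11 class I members were called higher in WT, where 6403 of 14402 tested genes were. All 11 class II members were called higher in null mice too, but the null groups lost no mouse there, so their calls were not checked by it.

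Fewer members were called between genotypes than between diets. TSP-1 null was compared with WT on each diet, with directions that rest on the labels. On control diet, where 4.77% of all tested genes were called (3.03% lower and 1.74% higher), 3 of 11 class II members were called, Ciita and H2-Eb1 lower and H2-Ob higher, and 1 of 17 class I members, Tap1, lower. The median log2FC was −0.59 for class II and −0.17 for class I, against −0.07 over all tested genes. A negative log2FC was seen in 9 of 11 class II and 15 of 17 class I members. The median of all tested genes was itself negative, and 2 of 11 class II and 7 of 17 class I members lay above it.

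Ciita, with the values given above, was lower in each of the 5 livers labelled TSP-1 null than in any NDWT liver (6.69% of all tested genes were separated in this direction and 2.33% in the other). Its mean was 1.35 ± 0.386 FPKM in NDWT and 0.468 ± 0.0481 FPKM in NDKO, a log2FC of −1.31 ± 0.21 (FDR = 0.00072, limma), and it was called lower in every alternative run. The 0.732 FPKM of NDWT replicate 4 was the value nearest to the NDKO livers. Tap1 measured 10.6, 13.8, 13.2, 7.59 and 11.03 FPKM in NDWT and 7.46, 6.48, 5.99, 6.19 and 6.68 FPKM in NDKO. These groups did not overlap either, and the log2FC was −0.74 ± 0.175 (FDR = 0.00864), again called in every alternative.

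H2-Eb1 measured 26.4, 20.6, 25.97, 29.9 and 19.2 FPKM in NDKO, a log2FC of −0.86 ± 0.27 against NDWT (FDR = 0.0415), and the groups overlapped because NDWT replicate 4 was as low as the NDKO livers. The call was not stable: it was lost without a level filter (FDR = 0.0775, with 1.55% of genes then called lower and 0.948% higher), with the replicate number as a block (0.0589), with only the 2 groups fitted (0.109), with median of ratios scaling (0.0513), with quantile normalization (0.0724), with eBayes without trend (0.0518) and in 11 of the 20 fits that left out 1 mouse. Those 11 include the fit without NDWT replicate 2, the NDWT liver with the highest H2-Eb1 (log2FC −0.66, FDR = 0.106). H2-Ob went the other way, with 0.368, 0.266, 0.481, 0.129 and 0.254 FPKM in NDWT and 0.661, 0.433, 0.492, 0.456 and 0.518 FPKM in NDKO, a log2FC of 0.67 ± 0.21 (FDR = 0.0399). It rests on 7 to 43 fragments per library and was lost in the same 3 fits (FDR = 0.0735, 0.0542 and 0.106), at a pseudocount of 1 (0.134) and in 7 of the 20 fits that left out 1 mouse, among them the fit without NDWT replicate 4 (0.0947). The B cell marker sums overlapped, at 1.48 to 4.52 FPKM in NDWT and 3.29 to 6.40 FPKM in NDKO, and 0 of 7 tested B cell markers were called in this comparison.

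Other class II members lay near the threshold on control diet. H2-Aa had a log2FC of −0.71 ± 0.23 (FDR = 0.0502), H2-Ab1 of −0.80 ± 0.28 (0.0601) and Cd74 of −0.63 ± 0.28 (0.148). These calls turn on single mice: without NDWT replicate 4, H2-Aa (FDR = 0.00284), H2-Ab1 (0.00565), Cd74 (0.0305) and H2-DMb1 (0.0300) were called lower beside Ciita and H2-Eb1, 6 of 11 members in all, and H2-Ob was no longer called. In that fit 519 of 14494 tested genes were called lower. H2-Aa and H2-Ab1 were also called lower without HFWT replicate 5 or HFKO replicate 5, which are in neither of the groups compared. With all mice the summed class II level was 109.7 to 355.7 FPKM in NDWT and 101.6 to 168.0 FPKM in NDKO. The macrophage marker sums overlapped, at 154.6 to 211.5 FPKM in NDWT and 143.4 to 249.4 FPKM in NDKO, as did the dendritic cell sums.

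Of the class I members, Tap1 alone was called on control diet, and 6 of 17 had an unadjusted p under 0.05 (limma), as did 7 of 11 class II members. The share of all tested genes at that p was not counted. Without a fold change threshold 1899 of 14524 genes passed an FDR of 0.05. H2-K1 differed by −0.10 (95% interval −0.35 to 0.16), H2-D1 by −0.17 (−0.45 to 0.10) and B2m by −0.05 (−0.23 to 0.12). Less abundant heavy chains had lower values that were not called, with H2-M2 at −0.75, H2-Q1 at −0.52, H2-M3 at −0.40 and H2-T22 at −0.33 (FDR = 0.055, limma). Of 11 genes of class I loading and control, 4 were called lower and none higher, where 3.03% of all tested genes were called lower. Calr and Canx, chaperones of the endoplasmic reticulum, had a log2FC of −0.88 and −0.64. Pdia3, an oxidoreductase of the loading complex, stood at −0.90 and Psmb9, whose gene lies next to Tap1, at −0.82. Interferon gamma is a known inducer of Ciita and Tap1. The 13 tested genes of its signal had a median log2FC of −0.70, against −0.07 over all tested genes. Of these 13, 6 were called lower and none higher. Among them were Cxcl10, a chemokine (−1.42), Gbp2, a guanylate-binding protein (−1.05), and Irgm2, an immunity-related GTPase (−0.70). Ifng itself was under the level filter, with at most 6 fragments in any NDWT library and at most 1 in any NDKO library. None of 9 genes of class II processing and control was called. A part of interferon gamma in the lower Ciita and Tap1 values was not tested.

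On CDAHFD no member was called between the genotypes, where 0.496% of all tested genes were called (0.165% higher). At an unadjusted p under 0.05, limma gave 7 of 17 class I and 0 of 11 class II members. The share of all tested genes at that p was not counted. Without a fold change threshold 163 of 14524 genes passed an FDR of 0.05. Cd74 differed by −0.34 (95% interval −0.92 to 0.24), H2-Ab1 by −0.31 (−0.89 to 0.26), H2-Eb1 by −0.40 (−0.97 to 0.17) and Ciita by −0.33 (−0.77 to 0.12), so differences of the size seen on control diet for Cd74, H2-Ab1 and H2-Eb1 lie inside these intervals. H2-M2 had the lowest log2FC, −0.87 ± 0.31 (FDR = 0.167), and was called lower without HFKO replicate 5 (−1.15, FDR = 0.0469), where 0.33% of all tested genes were called lower with all mice. H2-Q2 was lower in every HFKO liver than in any HFWT liver (4.13% of all tested genes) but was not called (−0.59 ± 0.18, FDR = 0.109). In the interaction of diet and genotype no member was called, against 0.647% of all tested genes (0.337% with a larger and 0.31% with a smaller response in null mice). There 2 class I and 1 class II members had an unadjusted p under 0.05, and the share of all tested genes was again not counted.

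**Figure D5:**
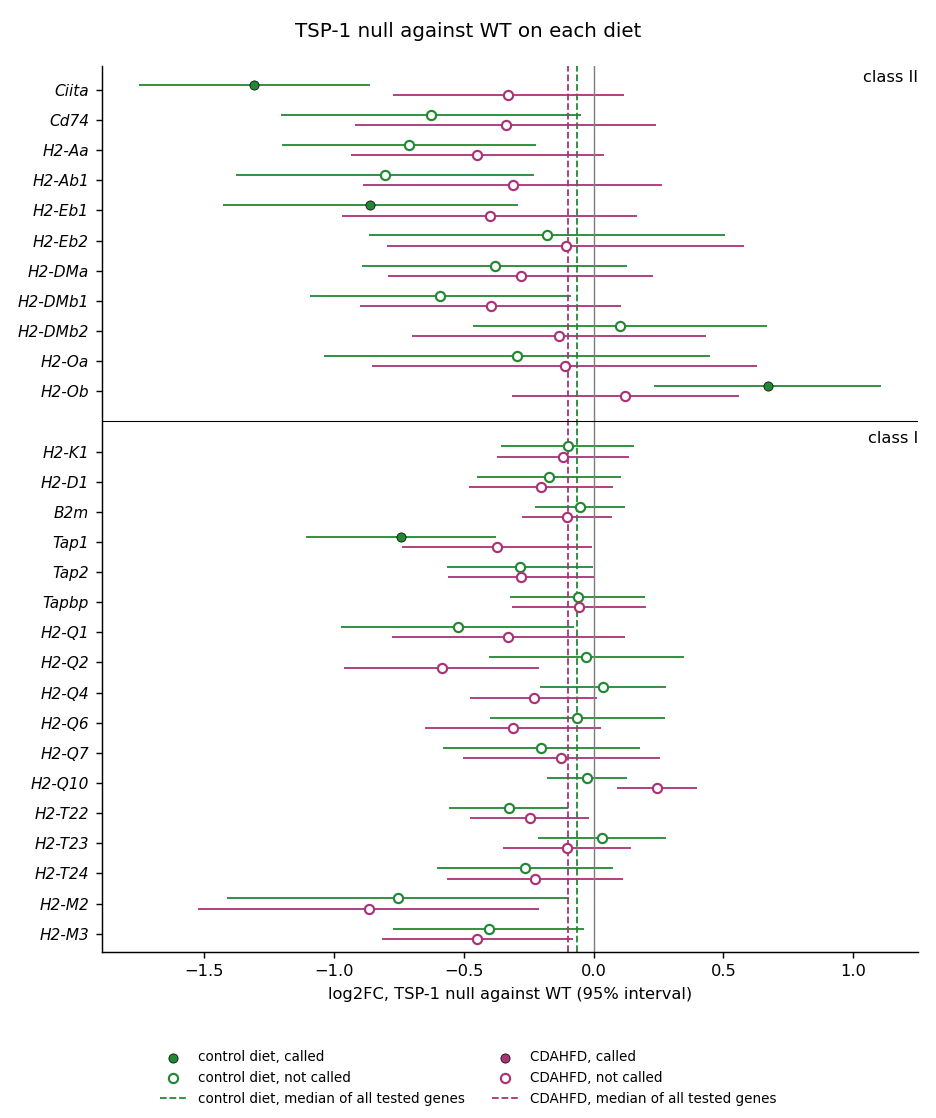
log2FC of TSP-1 null against WT for the 28 tested class I and class II members, on control diet (green) and CDAHFD (purple), with 95% intervals from limma. Filled points were called and dashed lines mark the medians of all 14524 tested genes (−0.07 and −0.10). Ciita, H2-Eb1 and Tap1 are filled on the left and H2-Ob on the right on control diet, and no CDAHFD point is filled.

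The 2 genes named H2-Ke do not present antigen. H2-Ke2 encodes a prefoldin subunit and measured 24.8 ± 2.65 FPKM in WT on control diet and 28.9 ± 2.49 FPKM on CDAHFD, and 23.7 ± 1.52 and 26.1 ± 1.98 FPKM in null mice, and it was not called in any comparison. H2-Ke6 did not pass the level filter, with 98 fragments over all 20 libraries, and exons of another annotated gene cover 86.4% of its exonic bases.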

How the data were processed

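Livers of 20 mice were profiled by RNA sequencing, 5 mice in each of 4 groups given by the labels. The deposited table holds FPKM, which the authors made from STAR alignments (STAR 2.5.2) and featureCounts (Subread 1.5.1) per the submitters' notes. The notes give a human build, but identifiers and coordinates are mouse GRCm38, and all 41 members matched GENCODE M21. Whether counting used strand is not given in the sources used here. The labels and the paper name different liver lobes. Fragments were recovered from FPKM and gene length (at least 99.95% of values whole), with a floor of 3.

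Values were log2(FPKM + 0.1) for the 14524 genes that passed 0.5 FPKM in 5 or more libraries. All 20 libraries entered 1 limma fit (limma 3.58.1, R 4.3.3, eBayes with trend), with Benjamini-Hochberg adjustment over all tested genes. On simulated data for the WT diet comparison (13664 genes), 83% of 100 genes changed by 1 log2 unit were called. Plots were drawn in matplotlib 3.10.9, and other steps used numpy 2.4.6 and pandas 2.3.3 under Python 3.11.15. Promoter windows came from RefSeq (GRCm38.p6). Named genes were the members, Thbs1 and at most the 4 genes of lowest FDR per pathway list and comparison, with Psmb9 added after its value was seen. The members and lists were chosen with earlier results of these data known. No library repeated another of its group (lowest chi-square per degree of freedom 12.1), and libraries of different groups were not compared in this way. Alternatives were other pseudocounts, level filters, scalings, fits and thresholds, a replicate block, and leaving out each mouse.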

Additional observations from a re-analysis of the deposited data

Results flagged for a closer look

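In 5 of 116 combinations of a member and a group of 5 mice, 1 mouse stood apart from the other 4 by Dixon's test (gap over range above 0.71), where chance at 1 in 20 would give 5.8. HFWT replicate 5 was the low mouse in 3 of them: H2-Q4 at 36.23 FPKM against 50.1 to 50.8 in the other 4 HFWT livers, H2-Q6 at 31.6 FPKM against 52.7 to 56.6, and H2-M3 at 6.397 FPKM against 9.26 to 9.69. H2-M2 stood at 5.346 FPKM in HFKO replicate 5 against 1.65 to 2.44 in the other 4 HFKO livers. H2-Q2 stood at 0.711 FPKM in NDKO replicate 1 against 0.294 to 0.373 in the other NDKO livers. No member was called in the interaction of diet and genotype.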

How the results depend on the processing

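All 48 called values of single members kept their direction in 1528 alternative values; the call was kept in 1475 and lost in 53, which belong to 15 of the 48. All 11 class II members were called higher on CDAHFD in both genotypes whichever single mouse was left out, and so were 10 to 11 class I members in WT and 10 to 12 in null mice, with the lowest without HFKO replicate 5. The scaling matters most: H2-D1, H2-T22 and, in null mice, H2-Q7 and Tap1 lost their diet calls with median of ratios scaling, and H2-T22, H2-Oa, H2-Eb2, Ciita in WT (0.41, FDR = 0.0662, limma) and H2-Ob, H2-Q2, H2-Q7 and Tap1 in null mice lost theirs with quantile normalization. H2-Eb2 also lost its calls at a pseudocount of 1 (0.57 and 0.56).

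For genotype on control diet the class II count of 3 became 1 without a level filter, 1 with only the 2 groups compared in the fit, and 1 with the replicate number as a block. It was 2 at a pseudocount of 1, with either scaling and with eBayes without trend, and 4 at a pseudocount of 0.01 and with 2 stricter level filters (mean FPKM above 0.5, or FPKM above 1 in at least 5 libraries), where H2-Aa was called lower too. Leaving out 1 mouse gave 1 to 6 class II members, with 6 without NDWT replicate 4, and 6 again with NDWT replicate 4 and HFWT replicate 5 both left out, a choice made after the levels were seen. The class I count of 1 ranged from 1 to 2 when a mouse was left out, the second being H2-M2 without NDWT replicate 4 (−0.96, FDR = 0.0477). On CDAHFD the class I count of 0 ranged from 0 to 1 (H2-M2 without HFKO replicate 5), and in the interaction the class II count of 0 ranged from 0 to 1 (Ciita without NDWT replicate 4) and was 1, again Ciita, with both mice left out. The cause of these changes was not tested. The labels number replicates alike across groups. Deviations of same-numbered mice correlated at −0.133 to 0.0807, which gave no sign that the numbers pair mice. Differently numbered mice were not compared, so a shared batch is not excluded. Depth limits H2-Eb2, H2-M2 and H2-Ob on control diet, where libraries held at most 5, 9 and 43 fragments.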

Other observations

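Rows of the H2 region that are not protein coding were outside the comparisons. H2-Q5, whose transcripts share 57.2% of their 31-base runs with other H2 genes, had a mean of 3.44 FPKM in NDWT, 3.35 FPKM in NDKO, 11.1 FPKM in HFWT and 8.57 FPKM in HFKO. H2-K2, another pseudogene row, had means of 6.51 and 7.09 FPKM on control diet and 12.6 and 9.23 FPKM on CDAHFD in WT and null mice. H2-T10 measured 0.601 and 0.716 FPKM on control diet and 2.52 and 1.96 FPKM on CDAHFD. H2-Q3, H2-Pa and H2-Pb held 0 fragments in all 20 libraries.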
